A study of Drosophila melanogaster with 2 samples.

Results

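The JAK/STAT pathway genes described here were the 7 genes named *upd1*, *upd2*, *upd3*, *dome*, *hop*, *Stat92E* and *Socs36E*, chosen by name from 13942 counted genes and found in both libraries. Ovaries of *w1118(x)* females, a white-eyed laboratory strain, were dissociated and sequenced as single cells, with 1 deposited library at 1 week and 1 at 6 weeks post eclosion. Both ages carried the same genotype, the flies were kept as females with males, and the tips of the ovarioles were not enriched. How many ovaries were pooled in a library was not given in the sources used here, and age cannot be told apart from any other difference between the 2 libraries.

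After filtering, 9131 cells at 1 week and 9878 cells at 6 weeks were kept, with medians of 10639 and 12585.5 unique molecular identifiers (UMIs, which mark single captured RNA molecules). The libraries shared 178 barcodes, and 26 of these were kept as cells in both. A level is given as UMIs per 1000000 UMIs of the same cells (CPM), and a change as the log2 ratio of the level at 6 weeks over that at 1 week. The paper's quality plots are split by replicate, but neither the labels nor the barcodes mark replicates, so each age was treated as 1 library. There is therefore no test and no p-value, and any spread between replicates is not measured here. The 95% intervals given for levels (exact Poisson), shares and ratios (both exact binomial) cover counting error only. "Rose" and "fell" are used for a change of at least 1.5-fold whose interval lies on 1 side of no change, for genes that reached 30 UMIs when the libraries were added.

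The cells formed 26 clusters, of which 14 were named from marker genes and 12 are called by their leading genes. Germ cell-like cells had 7 of 7 germline markers raised, escort-like cells 5 of 5, and FSCs + pFCs-like cells (follicle stem and precursor follicle cells) 5 of 6. The preparations also held gut-like, tubule-like, hemocyte-like and enteroendocrine-like cells, which are not ovarian. In 23 clusters at least 30 cells were present in both libraries, and ratios were taken in these. Members of the pathway were kept out of the genes used for clustering and naming.

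The pathway carries a signal from outside the cell to the nucleus. The secreted Unpaired proteins (Upd1, Upd2 and Upd3) bind the receptor Domeless, the kinase Hopscotch bound to the receptor is activated, and the transcription factor Stat92E then switches on target genes, among them *Socs36E*, whose product damps the signal. In the ovary the polar cells are known as a source of Upd that patterns the neighboring follicle cells and recruits the border cells, and signaling in the germarium maintains escort cells and follicle stem cells. In the gut, *upd2* and *upd3* are known to be induced by stress and to drive division of the stem cells.

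On the BDGP6 assembly the 3 ligand genes lie side by side on chromosome X. They cover 68638 bases, with *upd2* (FBgn0030904) at 18240654 to 18243284, *upd3* (FBgn0053542) at 18277233 to 18284596 and *upd1* (FBgn0004956) at 18305354 to 18309291. The receptor gene *dome* (FBgn0043903) lies on X at 19676061 to 19683518, and *hop* (FBgn0004864) on X at 11360930 to 11368098. *Stat92E* (FBgn0016917) lies on 3R at 20535323 to 20552311, and *Socs36E* (FBgn0041184) on 2L at 18138675 to 18152417. No counted gene overlaps any of the 7, so their UMIs were not shared with an overlapping neighbor.

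Over all cells, the ligand gene *upd1* fell with age and the target gene *Socs36E* rose, while the other 5 members changed by less than 1.5-fold. *upd1* had 1601 UMIs (13.5 CPM) at 1 week and 1091 UMIs (7.38 CPM) at 6 weeks, a log2 ratio of -0.87 (95% interval -0.98 to -0.76). *Socs36E* had 35270 UMIs (297 CPM) and 69557 UMIs (471 CPM), a log2 ratio of 0.66 (0.65 to 0.68). The ratio was 0.46 for *upd2*, 0.27 for *upd3*, 0.06 for *dome*, 0.39 for *hop* and -0.08 for *Stat92E*. Of the 10042 genes with enough UMIs in all cells, 4.37% rose and 9.44% fell, so 1 member of 7 in each direction is a small count against these shares. The median log2 ratio of all these genes was -0.01.

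**Figure D1:**
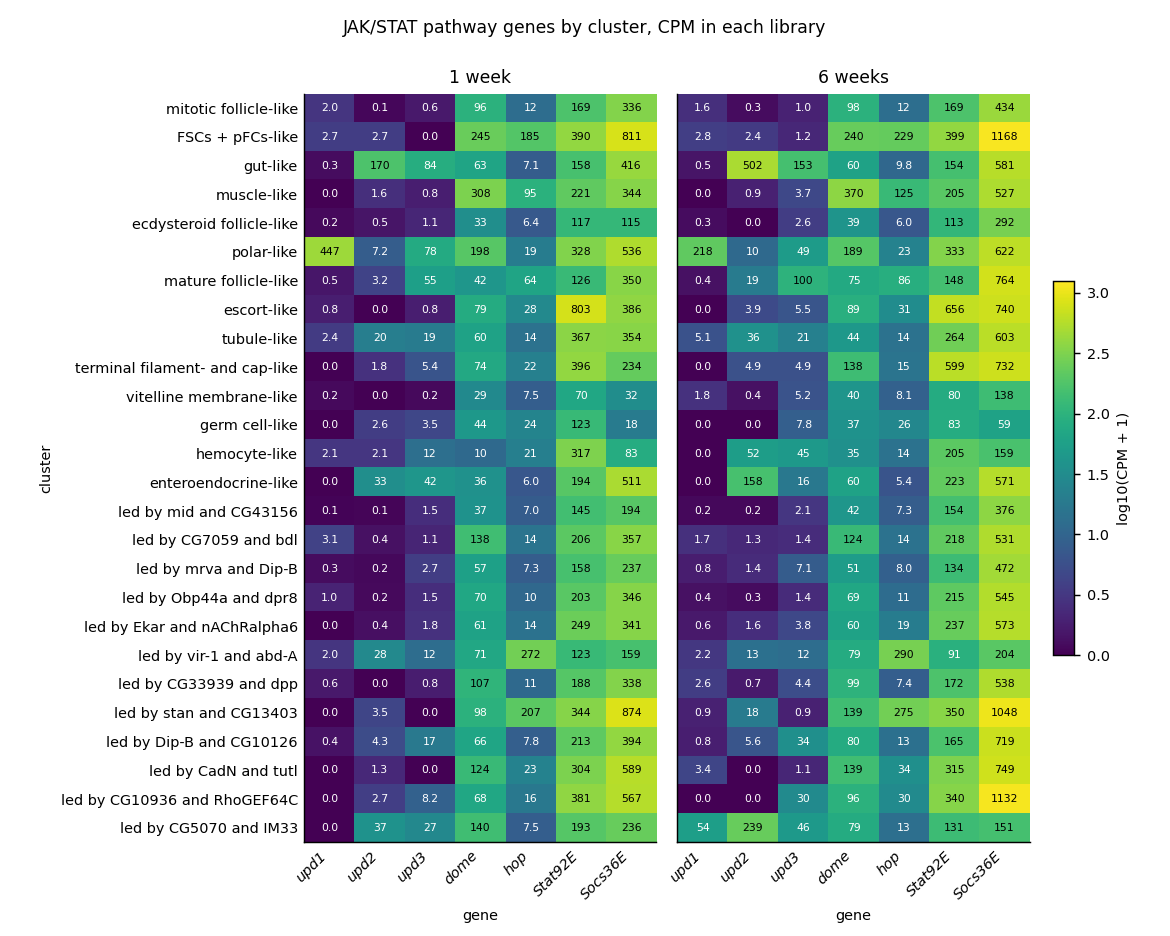
Level of each of the 7 genes (columns) in each of the 26 clusters (rows) at 1 week (left) and 6 weeks (right), in CPM, with color on a log10(CPM + 1) scale. *upd1* stands out in polar-like cells (447 and 218 CPM) and *upd2* in gut-like cells (169.7 and 502 CPM), whereas *Stat92E* and *Socs36E* are above 10 CPM in every cluster.

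*upd1* was almost confined to 1 cluster. The polar-like cells, 3.66% of the cells at 1 week, held 93.3% of the *upd1* UMIs at 1 week and 82.9% at 6 weeks. Their level was 447 CPM (425 to 470) in 334 cells at 1 week and 218 CPM (204 to 233) in 347 cells at 6 weeks. *upd1* fell there, with a log2 ratio of -1.04 (-1.16 to -0.92), and 4.84% of the genes compared in polar-like cells fell. A *upd1* UMI was present in 55.4% of the polar-like cells at 1 week and in 40.6% at 6 weeks, and after each cell was thinned to 1000 UMIs the shares were 28.7% and 16.4%. In germ cell-like cells no *upd1* UMI was found in 108 cells at 1 week or in 83 cells at 6 weeks, which allows levels of up to 2.64 and 1.66 CPM at a limit of 3 counts, while the 2-sided 95% intervals reach 3.24 and 2.05 CPM. Median depth was 8419.5 and 10621 UMIs in polar-like cells and 6886.5 and 6902 UMIs in germ cell-like cells. In 24 of the 26 clusters *upd1* was under 10 CPM at both ages. The other exception was a cluster led by *CG5070* and *IM33*, with no *upd1* UMI in 55 cells at 1 week and 34 UMIs in 3 of 21 cells at 6 weeks.

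The polar-like cluster raised 5 of 6 polar cell markers and also 5 of 5 border cell markers. Of the raised polar markers, *Fas3*, *cas* and *CadN* are also FSCs + pFCs markers. That list summed to 4364 CPM and 4226 CPM here, and to 3595 CPM and 3609 CPM in FSCs + pFCs-like cells. Finer clustering divided the polar-like cluster into a part with little *zfh1* and a part with more. *zfh1* encodes a transcription factor of early follicle cells and was at 12.9 CPM in the first part and 407 CPM in the second at 1 week. At both ages the *zfh1*-high part also had more *cas*, *eya* and *sim*, and the *zfh1*-low part more *Fas3* and *CadN*. The name polar-like is kept for the whole cluster, although its parts differ. In the *zfh1*-low part, *upd1* was detected in 94.7% of 152 cells at 1 week and in 93.5% of 108 cells at 6 weeks, and its level was 684 CPM and 525 CPM. The log2 ratio was -0.38 (-0.51 to -0.25), which is under 1.5-fold. In the *zfh1*-high part, *upd1* was detected in 22.5% of 182 cells at 1 week and 16.3% of 239 cells at 6 weeks, and its level was 85.5 CPM and 37.7 CPM. The fall over the whole cluster thus went with a smaller share of *zfh1*-low cells at 6 weeks, beside a lower level in each part. The 5 border cell markers did not move together in these cells. In the *zfh1*-low part *slbo*, a regulator of border cell migration, was at 48.1 CPM and 21.2 CPM, and *sn*, the fascin gene, at 185 CPM and 107 CPM. The other 3 changed by less than 1.5-fold there, with *jing* at 197 CPM and 219.6 CPM, *apt* at 334 CPM and 285 CPM and *Fas3* at 4028 CPM and 4062 CPM. Over the whole polar-like cluster the summed level of the border markers was 4242 CPM at 1 week and 3773 CPM at 6 weeks, with none at 0, and *Fas3* made up most of it. The 9 chorion markers summed to 2064 CPM and 24.9 CPM in this cluster, with none at 0. The 10 vitelline membrane markers summed to 1247 CPM and 389 CPM, and *Vm32E* was at 0 at 6 weeks. The part of these lists in the fall of *upd1* was not tested. Without the cells of over 1% chorion UMIs, an alternative chosen after seeing the data, the log2 ratio of *upd1* in polar-like cells was -1.06. When the members were allowed among the genes used for clustering, the log2 ratio in polar-like cells was -0.46 for *upd1* and -0.04 for *upd3*.

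**Figure D2:**
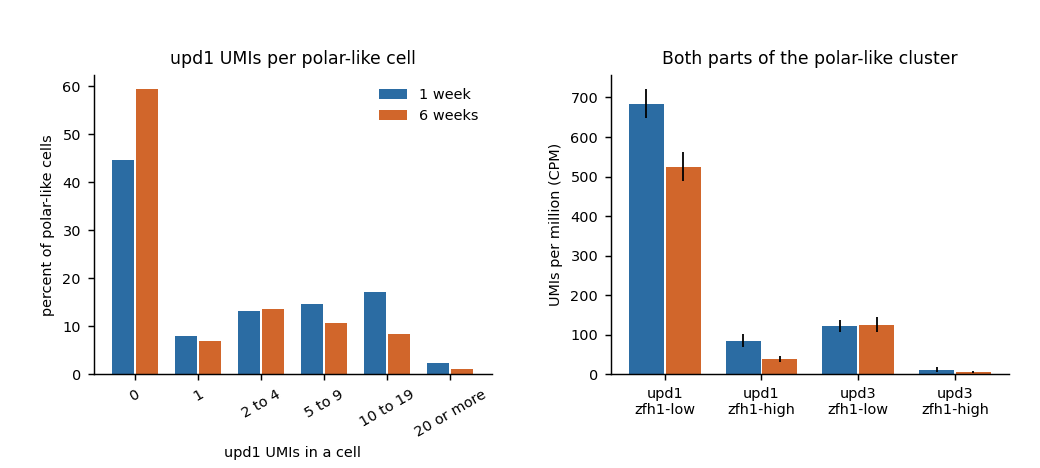
Left, percent of polar-like cells (334 at 1 week, 347 at 6 weeks) by the number of *upd1* UMIs in the cell. Right, CPM of *upd1* and *upd3* in the *zfh1*-low and *zfh1*-high parts of the cluster, with bars as levels and lines as 95% counting intervals. Cells without a *upd1* UMI made up 44.6% and 59.4% of the cluster, and cells with 10 to 19 UMIs 17.1% and 8.36%.

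*upd2* was mainly a gene of the gut-like cells, where it rose. These cells held 84.1% of its UMIs at 1 week and 77.6% at 6 weeks, although they made up 4.24% of the cells at 1 week and 1.60% at 6 weeks. The level was 169.7 CPM (160.4 to 179) at 1 week and 502 CPM (480 to 525) at 6 weeks, a log2 ratio of 1.57 (1.46 to 1.67), and 3.78% of the genes compared in gut-like cells rose. A *upd2* UMI was present in 46.5% of 387 cells and 72.8% of 158 cells, and after thinning in 13.7% and 32.3%. Germ cell-like cells had a *upd2* UMI in 0.926% of cells at 1 week and in none at 6 weeks. Over all cells the ratio was only 0.46. With the cluster shares of the 1-week library applied to both libraries it was 1.51.

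Within the gut-like cells *upd2* was high in cells with *esg*, the transcription factor of gut progenitors, which was picked after its values were seen. Finer clustering gave an *esg*-high part (180 and 174 CPM of *esg*), with *upd2* at 208 CPM in 306 cells at 1 week and 574 CPM in 130 cells at 6 weeks. In the *esg*-low part, which had high *mex1* and *Ssk*, markers of differentiated gut epithelium, *upd2* was at 21.4 CPM in 79 cells and 42.7 CPM in 27 cells. *upd3* was at 91.6 CPM and 154 CPM in the *esg*-high part and at 52.1 CPM and 153 CPM in the *esg*-low part, so at 6 weeks both parts had like levels. The summed level of the 7 gut markers in gut-like cells was 3755 CPM at 1 week and 1889 CPM at 6 weeks, with none at 0, and its part in the rise of *upd2* was not tested.

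Outside the gut-like cells *upd2* was sparse. It was under 10 CPM at both ages in 17 clusters. It rose in tubule-like cells (20.2 to 35.8 CPM), but without the 10 cells with the most *upd2* UMIs in each library the log2 ratio there turned from 0.83 to -0.30. It rose from 6 UMIs to 94 UMIs in mature follicle-like cells, where the log2 ratio of 2.52 was 0.25 with both libraries clustered together, and it fell in the cluster led by *vir-1* and *abd-A* (56 UMIs in 10 cells to 47 UMIs in 21 cells), so these values rest on few cells. In the small cluster led by *CG5070* and *IM33* the level was 37.3 CPM in 55 cells and 239 CPM in 21 cells. The tubule-like cells also carried gut markers, which summed to 4267 CPM at 1 week and 4489 CPM at 6 weeks. In gut-like cells these summed to 3755 CPM and 1889 CPM. The tubule markers summed to 2368 CPM and 971 CPM in tubule-like cells, so that cluster is not clearly apart from the gut.

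*upd3* was shared by several clusters, and it moved in both directions. The gut-like cells held 48.5% of its UMIs at 1 week and 31.3% at 6 weeks. It rose in gut-like cells from 84.3 CPM (77.8 to 91.2) to 153 CPM (141 to 166), a log2 ratio of 0.86. It rose in mature follicle-like cells, which carry the ovulation enzyme gene *Nox*, from 55.0 CPM (44.8 to 66.8) to 99.9 CPM (91.4 to 109), also a log2 ratio of 0.86. The share of mature follicle-like cells with a *upd3* UMI was 14.6% of 288 cells at 1 week and 34.7% of 622 cells at 6 weeks, beside 1.85% and 6.02% of germ cell-like cells. The median depth of the mature follicle-like cells was 4465.5 and 5910.5 UMIs. In this cluster 10.9% of the genes compared rose, and the median log2 ratio of all genes was 0.13, so *upd3* was 0.73 above the median. With both libraries clustered together the log2 ratio was 0.43, under the 1.5-fold limit.

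In polar-like cells *upd3* fell from 78.2 CPM (69.0 to 88.2) to 49.2 CPM (42.7 to 56.5), a log2 ratio of -0.67 (-0.94 to -0.40). Within the *zfh1*-low part of that cluster, however, its level was 122 CPM and 125 CPM, a log2 ratio of 0.03 (-0.25 to 0.31). The *zfh1*-high part had 14 UMIs at each age, 10.6 CPM and 5.44 CPM. In the *zfh1*-low part the 1.5-fold limit was passed on few counts by *upd2* with 22 UMIs and 34 UMIs and by *hop* with 28 UMIs and 36 UMIs. Polar-like cells with a *upd1* UMI also had a *upd3* UMI in 48.6% of cells at 1 week and 51.8% at 6 weeks, against 3.36% and 2.91% of polar-like cells without a *upd1* UMI. The former were deeper, with medians of 9991 and 12625 UMIs against 6793 and 8693. After thinning to 1000 UMIs the shares were 13.5% and 7.02% against 3.78% and 1.38%. At 1 week these were 13 of 96 cells and 9 of 238 cells, with intervals that did not overlap. At 6 weeks they were 4 of 57 cells and 4 of 290 cells, and the intervals overlapped. Low counts of *upd3* also rose in 5 further clusters. The log2 ratio was 1.00 in the cluster led by *Dip-B* and *CG10126* (16.8 to 33.6 CPM) and 1.39 in that led by *mrva* and *Dip-B* (2.70 to 7.09 CPM). In the other 3, at most 29 UMIs were counted at either age. For the cluster led by *Dip-B* and *CG10126* the lowest log2 ratio over the processing alternatives was 0.43, as for mature follicle-like cells.

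**Figure D3:**
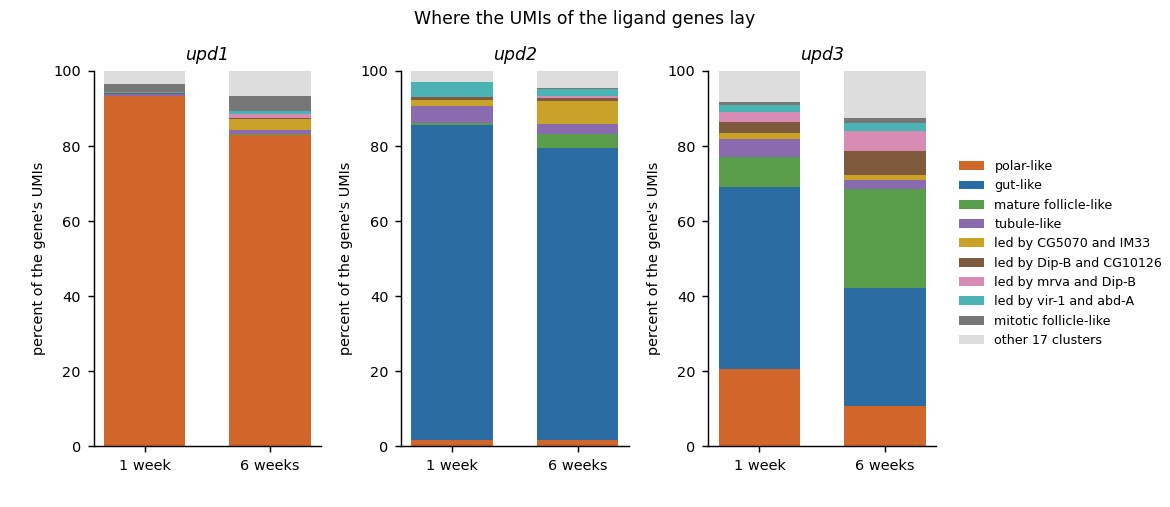
Share of the UMIs of each ligand gene by cluster, as percent of the gene's UMIs in a library, at 1 week and 6 weeks. Polar-like cells hold 93.3% and 82.9% of *upd1*, gut-like cells 84.1% and 77.6% of *upd2*, and mature follicle-like cells 8.06% and 26.6% of *upd3*.

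The chorion markers, eggshell genes that some cells carry in very large amounts, were much higher at 1 week in some clusters. Their summed level was 73407 CPM at 1 week and 536 CPM at 6 weeks in mature follicle-like cells. In terminal filament- and cap-like cells it was 184207 CPM and 9.86 CPM, and the median log2 ratio of all genes was 0.82 in that cluster. There 2 of 170 cells at 1 week and 0 of 202 cells at 6 weeks had over 1% chorion UMIs. The part of the chorion markers in this median was not tested. The 4 defining hemocyte markers *Hml*, *He*, *NimC1* and *eater* were at or under 0.2 CPM in mature follicle-like cells at both ages, although the summed level of all 8 markers on that list was 353 CPM and 644 CPM, nearly all of it *srp* and *atilla*. The 5 markers of mature follicle cells had a summed level of 1373 CPM at 1 week and 1608 CPM at 6 weeks, with 3 of 5 higher at 6 weeks.

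The receptor gene *dome* was detected in every cluster. Muscle-like cells were highest with 308 CPM (278 to 340) at 1 week and 370.0 CPM (345 to 397) at 6 weeks. FSCs + pFCs-like cells followed with 245 CPM (225 to 267) and 240.0 CPM (221 to 260), and polar-like cells with 198 CPM (183 to 213) and 189 CPM (176 to 203). These 3 did not overlap in their counting intervals. The lowest level at 1 week was 10.4 CPM (5 UMIs) in 61 hemocyte-like cells. Low levels were also found in vitelline membrane-like cells, which secrete the inner eggshell layer, with 28.8 CPM and 40.0 CPM, and in ecdysteroid follicle-like cells with 33.2 CPM and 39.3 CPM. *dome* changed by less than 1.5-fold in 21 of 23 clusters. It rose in mature follicle-like cells from 41.5 CPM to 75.1 CPM, a log2 ratio of 0.85 (0.50 to 1.23), but with both libraries clustered together the ratio was 0.22. It passed the limit in terminal filament- and cap-like cells, where the log2 ratio of 0.90 was 0.08 above the median of the cluster.

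*hop*, the gene of the kinase, had a few clear peaks. It was highest in the cluster led by *vir-1* and *abd-A*, with 272 CPM (250 to 296) at 1 week and 289.8 CPM (273 to 308) at 6 weeks. The cluster led by *stan* and *CG13403* had 207 CPM (178 to 240) and 275 CPM (245 to 308), and FSCs + pFCs-like cells 185 CPM (168 to 204) and 229 CPM (211 to 249). The intervals of these last 2 overlapped at both ages. Muscle-like cells had 95.1 CPM and 125 CPM, and the other clusters were lower. *hop* passed the limit in none of 21 clusters, although 18 of the 21 log2 ratios were above 0. Over all cells the log2 ratio of 0.39 became 0.70 when cells with more than 10% mitochondrial UMIs were left out, and 0.19 with the cluster shares of the 1-week library.

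*Stat92E*, the transcription factor gene, was detected in every cluster and peaked in escort-like cells, the somatic cells that surround early germ cells. Their level was 803 CPM (753 to 854) at 1 week and 656 CPM (612 to 702) at 6 weeks, a log2 ratio of -0.29 (-0.43 to -0.16). Terminal filament- and cap-like cells had 396 CPM (345 to 452) and FSCs + pFCs-like cells 390 CPM (364 to 417) at 1 week, and these intervals overlapped. The first of these levels is a share of UMIs that include the many chorion UMIs given above, so the 2 levels are not directly comparable. The lowest level was 70.1 CPM at 1 week and 79.5 CPM at 6 weeks in vitelline membrane-like cells. The log2 ratio was within 1.5-fold in 22 of 23 clusters. In the remaining cluster, the terminal filament- and cap-like cells, it was 0.60, but it was -0.22 after the cluster's median was set to 0. The 5 escort markers summed to 8242 CPM and 12351 CPM in that cluster, above the 7440 CPM and 7252 CPM in escort-like cells. The 5 terminal filament and cap markers summed to 1285 CPM and 1976 CPM there, and to 706 CPM and 869 CPM in escort-like cells.

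*Socs36E*, the target gene that restrains the pathway, was higher at 6 weeks in every cluster compared. The log2 ratio was above 0 in 23 of 23 clusters, the intervals excluded 0 in all 23, and the gene rose by at least 1.5-fold in 15. The median over clusters was 0.75, and the range was 0.21 in polar-like cells to 2.11 in vitelline membrane-like cells. Among the 1244 genes with at least 30 UMIs in every one of these clusters, 0.643% had a log2 ratio above 0 in as many clusters and 0.241% rose in as many. These percentages stand for 8 genes and 3 genes, *Socs36E* included. The other 2 of the 3 were *SCaMC*, a mitochondrial carrier gene that rose in 18 clusters, and *B4*, which also rose in 15. Of the 10042 genes compared over all cells, 426 had a log2 ratio above that of *Socs36E*. Of the 294 genes with at least as many UMIs as *Socs36E* over all cells, only *ImpL2*, which encodes a secreted insulin-binding protein, had a higher log2 ratio (0.67). Relative to the median of each cluster, *Socs36E* was above 0 in 23 of 23 and at least 1.5-fold higher in 14.

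The level of *Socs36E* was highest in the cluster led by *stan* and *CG13403* and in FSCs + pFCs-like cells, and lowest in germ cell-like cells. The cluster led by *stan* and *CG13403* had 874 CPM (813 to 939) at 1 week and 1048 CPM (988 to 1110) at 6 weeks. FSCs + pFCs-like cells had 811 CPM (774 to 850) and 1168 CPM (1126 to 1211), and the intervals of these 2 clusters overlapped at 1 week but not at 6 weeks. Escort-like cells had 386 CPM (352 to 422) and 739.7 CPM (693 to 788). Among the eggshell-forming clusters, ecdysteroid follicle-like cells had 115.3 CPM (108.7 to 122) and 292 CPM (282 to 302), and vitelline membrane-like cells 31.9 CPM (27.4 to 37.1) and 138 CPM (128 to 148). The intervals of the 2 ages overlapped in none of these 5 clusters.

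Germ cell-like cells had 21 UMIs of *Socs36E* at 1 week and 107 UMIs at 6 weeks, 18.5 CPM (11.4 to 28.2) and 59.3 CPM (48.6 to 71.7). A UMI was present in 9.26% of 108 cells and 24.1% of 83 cells. Free RNA from other cells can add to such low values, and its part was not tested. Of the germline markers, *osk* was at 3486 CPM and 775 CPM and *orb* at 924 CPM and 202 CPM. *vas*, *nos* and *zpg* were also lower at 6 weeks, while *bam* and *aub* were higher. Of the neuron markers, *nrv3* was at 15.8 CPM and 71.0 CPM and *pros* at 2.64 CPM and 48.8 CPM. *nSyb*, *brp* and *Syt1* were also higher at 6 weeks, and *elav* was lower. The part of these differences in the *Socs36E* values was not tested. The germ cell-like level of *Socs36E* was 6.21% of the all-cells level at 1 week and 12.6% at 6 weeks. In 21 of the other 22 clusters the rise in CPM was larger than the whole germ cell-like level at 6 weeks. The amount of free RNA was not measured, so these comparisons do not test its part. After thinning to 1000 UMIs per cell, the share of cells with a *Socs36E* UMI was higher at 6 weeks in 23 of 23 clusters. Of the 3 clusters with under 30 cells at 6 weeks, the one led by *CG5070* and *IM33* had a lower level, 236 CPM in 55 cells and 151 CPM in 21 cells.

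**Figure D4:**
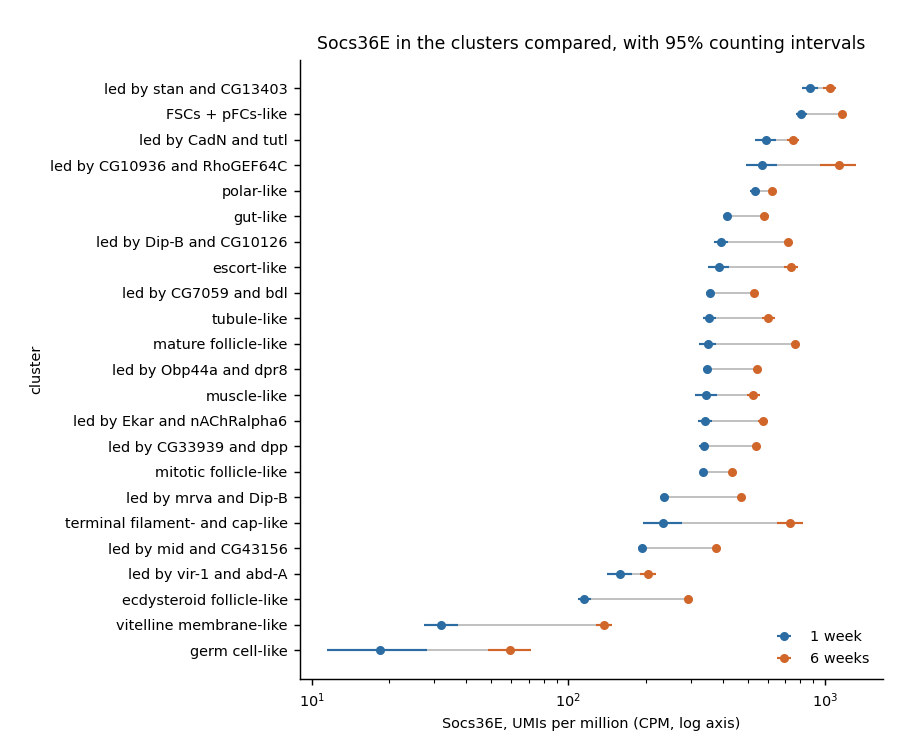
*Socs36E* level in CPM (log axis) in the 23 clusters with at least 30 cells in both libraries, ordered by the level at 1 week, with points for 1 week (blue) and 6 weeks (orange) and lines for 95% counting intervals. In every cluster the 6-week point lies to the right, from 18.5 and 59.3 CPM in germ cell-like cells to 874 and 1048 CPM in the cluster led by *stan* and *CG13403*.

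Over the whole polar-like cluster *upd1* fell, while *Socs36E* was at 536 CPM (511 to 561) at 1 week and 622 CPM (598 to 646) at 6 weeks. The *zfh1*-low part held 86.2% of all *upd1* UMIs at 1 week. There the log2 ratio of *upd1* was -0.38 (-0.51 to -0.25), which is under 1.5-fold. It was -1.18 (-1.59 to -0.78) in the *zfh1*-high part. Both parts of the cluster had a log2 ratio of *Socs36E* above 0, with 0.19 (0.06 to 0.31) in the *zfh1*-low part and 0.30 (0.17 to 0.44) in the *zfh1*-high part. In gut-like cells, where *upd2* and *upd3* rose, *Socs36E* was at 416 CPM and 581 CPM, a log2 ratio of 0.48.

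Counted over genes and clusters together, 13 of the 88 ratios of the 6 members other than *Socs36E* rose and 3 fell. Over all genes and the same 23 clusters, 6.36% of the ratios rose and 4.8% fell. The 13 were 3 for *upd2*, 7 for *upd3*, 2 for *dome* and 1 for *Stat92E*, and the 2 in terminal filament- and cap-like cells lay in the cluster whose median had shifted.

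**Figure D5:**
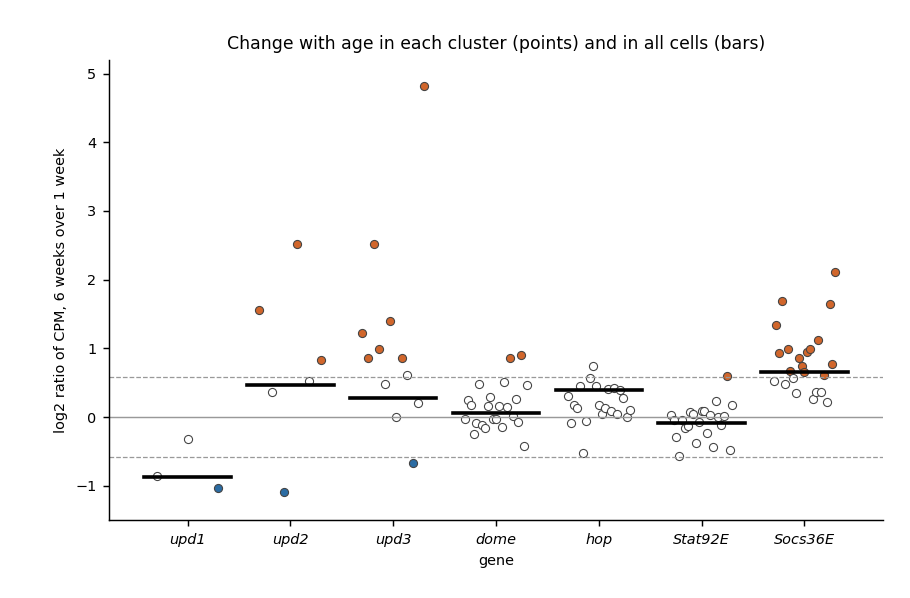
Log2 ratio of CPM, 6 weeks over 1 week, of each gene in each cluster with enough UMIs (points) and in all cells (black bars). Filled points rose (orange) or fell (blue), and dashed lines mark 1.5-fold. All 23 points of *Socs36E* lie above 0, those of *dome*, *hop* and *Stat92E* lie around 0, and *upd3* has 7 points that rose and 1 that fell.

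Most other listed genes of the pathway changed by less than 1.5-fold over all cells. Of 22 listed genes 19 had at least 30 UMIs, none rose and 1 fell, beside 4.37% and 9.44% of all genes, and the median log2 ratio was 0.07 beside -0.01 for all genes. The gene that fell was *slbo*, from 6.11 CPM to 3.93 CPM, a log2 ratio of -0.64 (-0.80 to -0.48). None of the 8 negative regulators passed the limit in either direction. *et*, which encodes a short receptor that antagonizes Domeless, lies 169 bases from *dome* on the same strand and had 144 UMIs at 1 week and 161 UMIs at 6 weeks. It was highest in hemocyte-like cells, at 82.8 CPM in 61 cells and 41.6 CPM in 19 cells, so its pattern differed from that of its neighbor. The other genes of the Socs family did not follow *Socs36E*. *Socs16D* was at 18.7 CPM and 20.04 CPM, a log2 ratio of 0.10 (0.02 to 0.18), and *Socs44A* at 17.1 CPM and 19.5 CPM, a log2 ratio of 0.19 (0.11 to 0.27). Of the 12 genes reported to respond to the pathway, 9 could be compared, with a median of -0.01. Their log2 ratios over all cells ranged from -0.64 for *slbo* to 0.45 for *Mmp1*, which did not reach 1.5-fold.

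The genes whose levels were most like those of each member were ranked by the mean Pearson correlation of log2(CPM + 10) at both ages, over 23 clusters and 8387 genes. Clusters share libraries and depth, so these values are descriptions. For a gene concentrated in a single cluster, such as *upd1*, the correlation is set mostly by that cluster. The genes most like *upd1* were *CG34377* (mean correlation 0.99), *CG13297* (0.98) and *TwdlT* (0.98). For *upd2* they were *mex1* (0.91), *drm* (0.91) and *CG44013* (0.91), and for *upd3* *Mctp* (0.78), *Strica* (0.75) and *CG13659* (0.74). For *dome* they were *CG8547* (0.81), *CG31729* (0.81) and *CG7800* (0.79). For *hop* they were *Oamb* (0.90), which encodes an octopamine receptor, *sim* (0.89) and *Tsp42Ek* (0.88). For *Stat92E* they were *robo2* (0.90), *Oatp30B* (0.88) and *CG12567* (0.87), and for *Socs36E* *Syp* (0.85), *NK7.1* (0.81) and *Ubi-p63E* (0.81). Among the members themselves, *Socs36E* was most like *Stat92E*, with correlations of 0.67 at 1 week and 0.77 at 6 weeks, and next *dome*, with 0.60 and 0.55. Its correlations with the 3 ligand genes lay between 0.08 and 0.19. The likeness of *upd2* and *mex1* over clusters did not hold within the gut-like cells. At 1 week *mex1* was at 105 CPM in the *esg*-high part and 931 CPM in the *esg*-low part, and *upd2* at 208 CPM and 21.4 CPM.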

How the data were processed

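The authors aligned the reads of both libraries with Cell Ranger 9.0.0 (per the submitters' processing notes, on BDGP6) and deposited raw UMI counts per gene and barcode, 33317 barcodes at 1 week and 20224 at 6 weeks. The labels name version 4 of the 10x 3′ kit, and the paper's methods name an older version as well. If the kit version differed between the libraries, its effect cannot be told apart from that of age.

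Here a barcode was kept as a cell from 500 genes and 1000 UMIs upward if mitochondrial UMIs did not exceed 20%, which left 118721990 and 147732187 UMIs. Principal components (30) were taken from 2000 highly variable genes, from which mitochondrial genes, members and listed pathway genes had been removed. A graph of 20 neighbors per 1-week cell was clustered with leidenalg 0.10.2 at resolution 1, and each 6-week cell took the commonest cluster of its 30 nearest 1-week cells. A cluster was named when at least 3 markers of a class were raised 2-fold in at least 10% of cells, with 1 among its 10 leading genes. Doublets were left in, and an alternative removed 1217 and 799 cells. UMIs were summed per cluster, and SciPy 1.17.1 gave the intervals. Thinning drew 1000 UMIs from each cell. The calculation was tested on simulated counts with counting error only, which does not test the spread between cells or libraries.

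Named genes were the members, *et*, *Socs16D* and *Socs44A*, listed pathway genes that changed by 1.5-fold in all cells, and the 3 genes most like each member. Members, lists and naming thresholds were chosen with earlier results of these data known. Gene positions came from release 6.54 of BDGP with Ensembl 115.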

Additional observations from a re-analysis of the deposited data

Results flagged for a closer look

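*upd2* and *upd3* each rose in some clusters and fell in another. None of these differences between clusters was tested, since each age was treated as 1 library. For *upd2* the log2 ratio was 1.57 in gut-like cells, 0.83 in tubule-like cells and 2.52 in mature follicle-like cells, and -1.09 in the cluster led by *vir-1* and *abd-A*. In the last cluster 10 cells held all 56 UMIs at 1 week, and in mature follicle-like cells there were 6 UMIs at 1 week.

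For *upd3* the log2 ratio was -0.67 in polar-like cells. It was 0.86 in gut-like cells and 0.86 in mature follicle-like cells, 1.00 in the cluster led by *Dip-B* and *CG10126* and 1.39 in that led by *mrva* and *Dip-B*. It was 1.22 in ecdysteroid follicle-like cells (11 UMIs at 1 week and 28 at 6 weeks) and 2.53 in the cluster led by *CG33939* and *dpp* (5 and 27 UMIs). In vitelline membrane-like cells it was 4.83 (95% interval 2.23 to 10.2), from 1 UMI at 1 week and 29 UMIs at 6 weeks. In mature follicle-like cells and in the cluster led by *Dip-B* and *CG10126* the lowest value over the alternatives was 0.43, under the 1.5-fold limit.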

How the results depend on the processing

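*Socs36E* was higher by 1.5-fold in 12 to 19 clusters over the alternatives and stayed at 15 without chorion-rich cells (over 1% chorion UMIs, 25 cells at 1 week and 4 at 6 weeks), an alternative chosen after seeing the data. Of 333 values by cluster, 275 kept their direction and size, 52 moved and 6 changed sign. For *Stat92E* in terminal filament- and cap-like cells the log2 ratio of 0.60 became -0.21 at resolution 2, -0.13 with both libraries clustered together, -0.22 with the median set to 0, -0.18 after thinning, -0.18 as a mean of the CPM of each cell and 0.22 without chorion-rich cells. For *upd2* in tubule-like cells it became -0.30 without the 10 cells with the most UMIs. The causes were not tested.

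Over all cells, thinning gave *upd2* 0.30, *dome* 0.16 and *Stat92E* -0.051. The cluster shares of 1 week gave *upd2* 1.51, *upd3* 0.65, *dome* 0.016, *hop* 0.19, *Stat92E* -0.045 and *Socs36E* 0.69. The mean of the CPM of each cell gave *upd2* 0.31, *upd3* 0.48, *Stat92E* -0.053 and *Socs36E* 0.65, and CPM over non-mitochondrial UMIs gave *Socs36E* 0.65. A mitochondrial limit of 10% gave *dome* 0.13, *hop* 0.70, *Stat92E* -0.044 and *Socs36E* 0.70, and no limit gave *hop* 0.28 and *Stat92E* -0.11. Resolution 2 divides the leading clusters. At 1 week the *zfh1*-high part of the polar-like cells, which that setting matched to the cluster, held 7.06% of *upd1* UMIs and the *zfh1*-low part 86.2%, while the *esg*-high part of the gut-like cells held 81.9% of *upd2* and 41.8% of *upd3*. The whole gut-like cluster held 90.7% for *upd2* and 52.0% for *upd3* without doublets. At 2-fold, 1.88% of genes rose, 5.96% fell, and 0 listed pathway genes fell. With every gene of at least 1 UMI in each library, 2 listed genes fell. No paired analysis was possible because each age was treated as 1 library. Leaving out a replicate could not be run for the same reason. Most clusters had under 30 UMIs of *upd1*, so no ratio was taken there.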
